A study of Homo sapiens with 4 samples.

Results

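The MYC and MAX network was described in A549 cells, a human cell line established from a lung carcinoma, into which an A-FOS gene under doxycycline control was brought. Its 10 members (MYC, MYCL, MAX, MXD1, MXD3, MXD4, MXI1, MNT, MLX and MGA) were taken by symbol, and each matched 1 Ensembl ID among the 58051 genes counted. PolyA RNA was counted in 4 libraries, 2 of cells grown without doxycycline (minus Dox) and 2 of cells given it at 1 µg/mL (plus Dox). Cells of both groups have A-FOS integrated with piggyBac, which the series' design text calls random and the titles call a knock-in. The labels give neither the promoter of A-FOS, nor whether the cells are 1 clone, nor how long doxycycline was given, nor whether the libraries of a group are separate cultures. All p-values below therefore measure only the spread between these libraries, which may be technical. There is no doxycycline-treated sample without A-FOS, so the drug and A-FOS cannot be told apart, and in bulk RNA fewer expressing cells and less RNA per cell cannot be told apart either.

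MYC is a basic helix-loop-helix leucine zipper (bHLH zipper) protein that binds the E-box CACGTG as a dimer with MAX and raises the transcription of genes for ribosomes, metabolism and division. The MXD proteins, MXI1 and MNT compete with MYC for MAX and for the same E-boxes, and they bring in the SIN3 and HDAC corepressors. MLX is a MAX-like partner of the glucose-sensing factors MondoA (gene MLXIP) and ChREBP (gene MLXIPL), and MGA pairs with MAX inside a repressive Polycomb complex named PRC1.6. A-FOS is a dominant-negative FOS that pairs with JUN proteins and keeps AP-1 from DNA, and MYC is a growth gene that answers to the same mitogen signals as AP-1.

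Total counts were 31104964 to 40526912 per library. Reads counted to FOS, which may include those of A-FOS, were 1.36 and 1.52 CPM (counts relative to the TMM-scaled library size) without doxycycline and 48.6 and 51.0 CPM with it, as the labels have it. All 6 epithelial carcinoma markers were detected at 1 CPM or more on average. Their summed level was 12625 to 12966 CPM in minus Dox and 6293 to 6489 CPM in plus Dox. All 6 were lower in both plus Dox libraries. KRT7 held most of the drop, at 4445 and 4643 CPM in minus Dox and 528 and 524 CPM in plus Dox. CDH1 moved little, with 38.5 and 38.4 CPM in minus Dox and 36.2 and 33.8 CPM in plus Dox. Summed levels were 1.83 to 2.11 and 0.805 to 1.22 CPM for 5 endothelial markers, and 2.13 to 2.69 and 1.19 to 1.48 CPM for 5 leukocyte markers, of which the T cell gene CD3E was at 0 in all 4 libraries and CD14 held most of the sum. For 5 fibroblast markers the sums were 42.2 to 48.7 and 38.9 to 40.5 CPM, most of it COL1A1. The part of these shifts in the results below was not tested.

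Promoter windows from RefSeq (GRCh38.p14, 250 bases before to 50 after a start) were taken for 9 of the 10 genes, in 14 windows. No window of MYC was included, so whether its promoter holds the motifs below was not tested. Both strands were searched for 3 motifs: the E-box CACGTG that network dimers bind, TGANTCA, the AP-1 site, read here with C or G at its N, and TGTTTAC, a forkhead site of the kind FOXA1 binds. The E-box was in windows of 3 of these 9 members (MXD4, MNT and MLX), while 8.77% of all genes in the table have a window with it and 7.26% of all windows hold it. TGANTCA was in 1 member (MXD3; 6.05% of all genes and 4.95% of all windows) and TGTTTAC in 1 (MXI1, in 2 of its 3 windows; 4.19% of all genes and 3.42% of all windows). None of these letters was in the windows of MYCL, MXD1, MAX or MGA. The stretches below are shown because each holds 1 of the 3 motifs in a window of a member whose levels follow. All lie before the RefSeq start site and outside the exons of GENCODE 29, are given 5′ to 3′ on the gene's strand, and have the match in capitals.
MXD4 (chr4:2262295-2262359, minus strand): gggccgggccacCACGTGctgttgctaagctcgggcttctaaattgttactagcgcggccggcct
MNT (chr17:2401194-2401293, minus strand): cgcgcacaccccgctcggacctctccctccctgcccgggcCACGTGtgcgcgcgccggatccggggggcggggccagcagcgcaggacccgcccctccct
MLX (chr17:42567000-42567067, plus strand): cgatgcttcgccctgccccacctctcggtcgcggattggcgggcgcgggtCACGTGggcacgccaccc
MXD3 (chr5:177312772-177312871, minus strand): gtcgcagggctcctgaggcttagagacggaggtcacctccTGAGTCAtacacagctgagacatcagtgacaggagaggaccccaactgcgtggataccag
MXI1 (chr10:110210040-110210139, plus strand): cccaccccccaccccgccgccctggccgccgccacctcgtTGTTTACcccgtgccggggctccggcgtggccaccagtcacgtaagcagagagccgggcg

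All 10 members passed the filter on low counts. With doxycycline 5 members rose (MXI1, MXD1, MYCL, MLX and MAX), 2 fell (MYC and MGA), and 3 (MXD3, MXD4 and MNT) did not pass, as tested in edgeR (quasi-likelihood, Benjamini-Hochberg over 18046 genes) at an adjusted p threshold of 0.05. Of all tested genes 56.9% passed, 28.4% as higher and 28.4% as lower, so the count of 7 among 10 members is to be read against a background in which most genes passed. The CPM of the groups did not overlap for 8 members, against 77.0% of all tested genes. The members' median log2 fold change was 0.14, against 0.00 over all tested genes. With library size only in place of TMM, the median of all tested genes moved to 0.22 and that of the members to 0.35, and 7 members were higher and 1 lower, against 43.6% and 16.2% of all tested genes. Without plus Dox replicate 2 the members that rose were 3.

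MYC (ENSG00000136997, chromosome 8, 127735434 to 127741434 in hg38) was the member with the most RNA before induction. It had 146 and 153 CPM in the minus Dox libraries and 49.3 and 52.2 CPM in the plus Dox libraries. Both plus Dox libraries lay far below both minus Dox libraries, and replicates differed by a few CPM. The log2 fold change was −1.56 (SE 0.05), a 2.95-fold fall (edgeR adjusted p = 1.64e-24). Of all tested genes 3.19% had a lower fold change. With library size only the fall was 1.34 on the log2 scale.

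MYCL, the MYC relative first found in lung cancer, stayed at a low level. It had 1.98 and 1.65 CPM without and 2.70 and 3.01 CPM with doxycycline, from 62 to 101 counts a library. The groups did not overlap, and the log2 fold change was 0.65 (SE 0.23, edgeR adjusted p = 0.0130). This call is weak: it was lost in DESeq2 (adjusted p = 0.0858) and without minus Dox replicate 2 (0.0977) or plus Dox replicate 2 (0.0851) in edgeR, and over 9 alternatives the adjusted p lay between 9.78e-04 and 0.0977. The third MYC gene, MYCN, named after its values were seen, had no count in any library, where a count of 0 allows up to 0.0800 to 0.0895 CPM by counting error.

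MAX, the shared partner (chromosome 14, 65006174 to 65102695), moved little. Its levels were 44.8 and 46.7 CPM in minus Dox and 50.3 and 53.0 CPM in plus Dox, which do not overlap. The log2 fold change was 0.17 (SE 0.06, edgeR adjusted p = 0.0130). It lost the call without minus Dox replicate 1 (adjusted p = 0.0765) or plus Dox replicate 2 (0.221), and over the alternatives the adjusted p lay between 4.06e-07 and 0.221. The difference is below the shift of 0.22 that the choice of scaling gives to all genes.

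MXI1 rose most among the antagonists (chromosome 10, 110207605 to 110287365). It had 12.7 and 13.0 CPM in minus Dox and 29.4 and 27.9 CPM in plus Dox. The 2 groups were well apart, and the log2 fold change was 1.15 (SE 0.08, edgeR adjusted p = 2.67e-14), a rise that 5.77% of tested genes exceeded. MXI1 is the antagonist whose windows hold the forkhead letters shown above. The stretch shown lies within the gene's span, before a later start site, and a link of these letters with the rise was not tested.

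MXD1, the antagonist known for its rise as cells leave the cycle and differentiate, also rose (chromosome 2, 69897688 to 69942945). It had 7.36 and 8.38 CPM in minus Dox and 16.2 and 15.6 CPM in plus Dox. Groups did not overlap, and the log2 fold change was 1.01 (SE 0.11, edgeR adjusted p = 2.99e-10). Both genes kept their direction and their call with library size only, in DESeq2 and without any 1 library.

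The other antagonists did not pass. MXD4, the most abundant of them per length, had 56.0 and 59.5 CPM in minus Dox and 55.5 and 57.3 CPM in plus Dox, so that the groups overlapped. Its log2 fold change of −0.03 (SE 0.06) turned to 0.18 with library size only, where it passed as higher (edgeR adjusted p = 0.00608, with 0.00608 to 0.990 over the alternatives). MXD3, a member seen in S phase, had 14.2 and 12.6 CPM against 14.7 and 13.9 CPM, again overlapping. Its log2 fold change was 0.10 (SE 0.10), and 0.31 with library size only, where it passed (edgeR adjusted p = 0.00600, with 0.00600 to 0.971 over the alternatives). Of its exon bases 18.0% are shared with RAB24 on its strand and 22.5% with PRELID1 on the other, which leaves its count uncertain.

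MNT, the broadly expressed antagonist present in growing and resting cells, had 45.5 and 47.3 CPM in minus Dox and 44.0 and 40.2 CPM in plus Dox. Both plus Dox values lay lower, but the nearest libraries of the groups, at 45.5 and 44.0 CPM, are closer than the plus Dox libraries are to each other. The log2 fold change was −0.14 (SE 0.06, edgeR adjusted p = 0.0603), and it turned to 0.077 with library size only. Without minus Dox replicate 1 MNT passed as lower (−0.18, edgeR adjusted p = 0.0180, with 0.0180 to 0.518 over the alternatives).

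**Figure D1:**
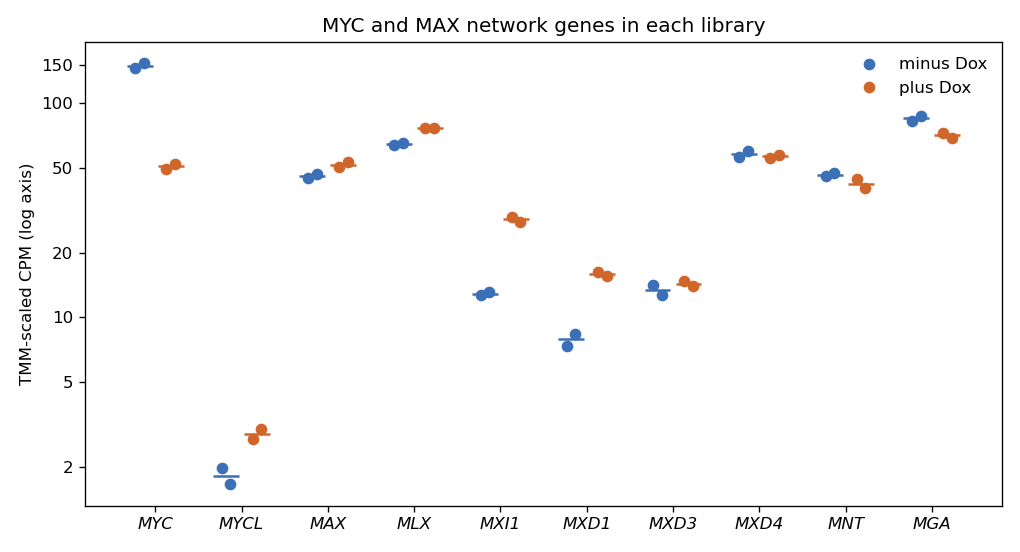
TMM-scaled CPM (log axis) of the 10 members, with 1 point per library, blue for minus Dox and orange for plus Dox, and a line at each group's mean. MYC drops from 146 and 153 to 49.3 and 52.2 CPM, MXI1 and MXD1 rise, and the points of MXD3 and MXD4 overlap.

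MLX and MGA moved in opposite directions by small amounts. MLX (chromosome 17, 42567068 to 42573239) had 64.0 and 64.8 CPM in minus Dox and 76.9 CPM in each plus Dox library, a log2 fold change of 0.26 (SE 0.05, edgeR adjusted p = 6.72e-05). Of its exon bases 18.1% lie opposite PSMC3IP. MGA (chromosome 15, 41621224 to 41773081), a very large protein with a T-box as well as a bHLH zipper, had 82.3 and 87.5 CPM in minus Dox and 72.7 and 68.8 CPM in plus Dox. Its log2 fold change was −0.26 (SE 0.05, edgeR adjusted p = 5.13e-05). The fall of MGA depends on the scaling: with library size only it was −0.047 (adjusted p = 0.459, with 8.07e-09 to 0.459 over the alternatives).

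**Figure D2:**
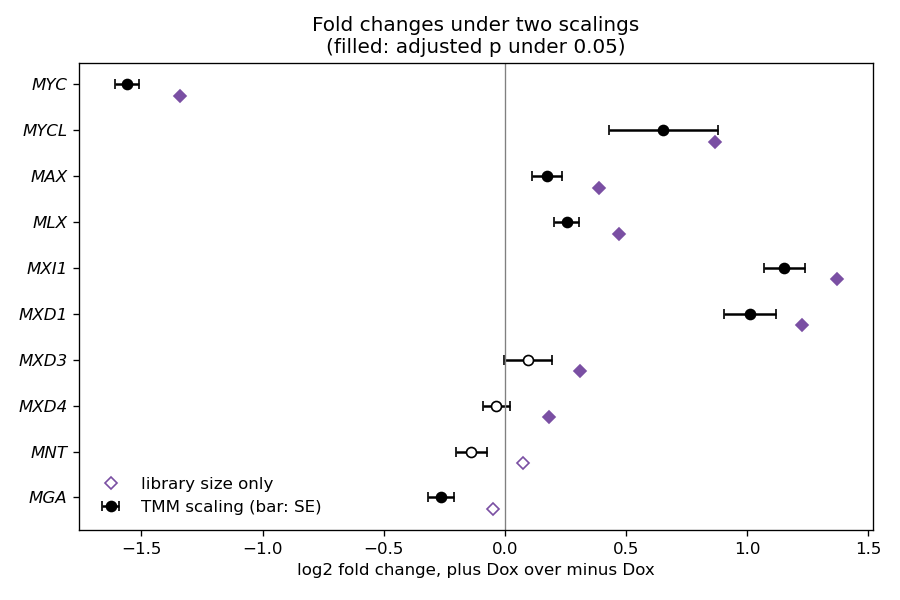
Fitted log2 fold change of plus Dox over minus Dox for the 10 members, with black circles and SE bars for TMM scaling, purple diamonds for library size only, and filled symbols for an adjusted p under 0.05. MYC lies at −1.56 and −1.34, MXI1 and MXD1 lie above 1 under both scalings, and MXD4 and MNT sit on different sides of 0 in the 2 fits.

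MYC was then set against its antagonists within each library, where the scaling between libraries cancels. Levels were divided by exon length (RPKM, TMM-scaled, with all exon bases of a gene in GENCODE 29 as its length), since only then can genes be compared. MYC RPKM was 2.45 and 2.50 times the summed RPKM of MXD1, MXD3, MXD4, MXI1 and MNT in minus Dox. It was 0.666 and 0.727 times that sum in plus Dox. Without division by length the same ratio was 1.07 and 1.09 without doxycycline and 0.309 and 0.337 with it, so its size rests on the lengths used. The RNA of MYC thus exceeded that of the 5 antagonists together in both minus Dox libraries and was below it in both plus Dox libraries. The mean ratio was 2.47 ± 0.0317 and 0.697 ± 0.0431 (SD, n = 2), 3.55-fold lower with doxycycline. No test is given, since an exact two-sided permutation test of 2 against 2 libraries cannot go below a p of 0.333.

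Both sides of the ratio differed between the groups, MYC by more. MYC itself went from 48.6 and 51.1 RPKM to 16.4 and 17.4 RPKM. The antagonists' sum went from 19.8 and 20.4 RPKM to 24.7 and 23.9 RPKM, which do not overlap. Its makeup differed between the groups: MXI1 held 13.9% and 13.8% of the sum without doxycycline and 25.8% and 25.3% with it. MXD1 went from 5.86% and 6.45% to 10.3% and 10.2%, while MXD4 went from 40.1% and 41.2% to 31.9% and 33.9% and MNT from 26.3% and 26.5% to 20.4% and 19.3%.

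Against single genes, the ratio of MYC to each of the 5 antagonists and to MAX was lower with doxycycline, with no overlap between groups. MYC had 17.7 and 18.0 times the RPKM of MXI1 in minus Dox and 2.58 and 2.88 times in plus Dox, 6.55-fold lower. Against MXD1 the ratio went from 41.9 and 38.7 to 6.44 and 7.09. The smallest drop among the antagonists was against MNT, from 9.32 and 9.42 to 3.26 and 3.77, 2.66-fold lower. Against MAX it went from 4.80 and 4.84 to 1.45 and 1.45.

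**Figure D3:**
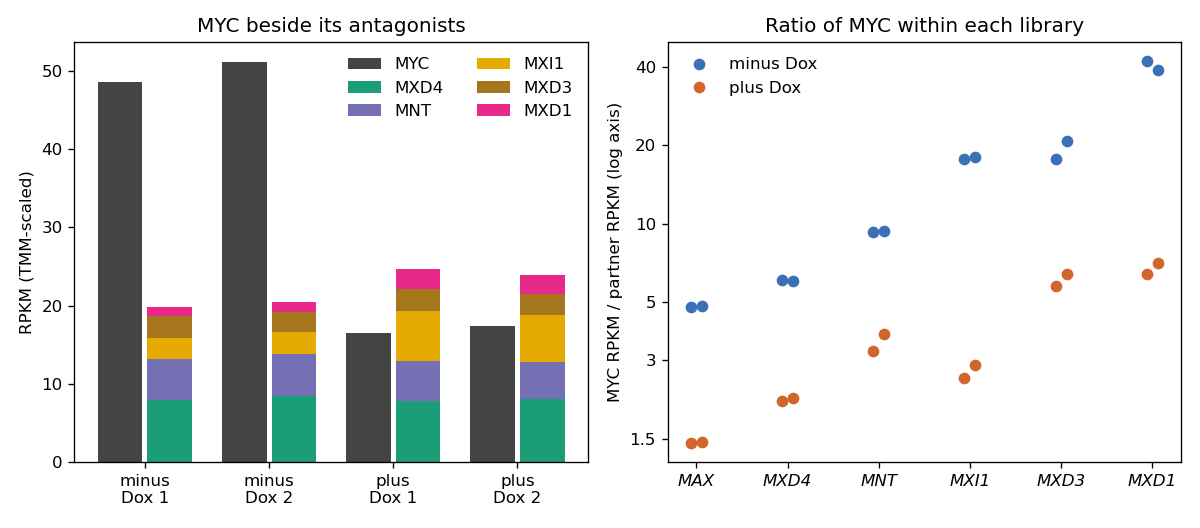
Left, RPKM of MYC (grey) beside the stacked RPKM of its 5 antagonists in each library. Right, the RPKM of MYC divided by that of MAX or of 1 antagonist (log axis), 1 point per library, blue for minus Dox and orange for plus Dox. MYC stands above the stack in minus Dox and below it in plus Dox, and every ratio is lower in both plus Dox libraries.

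In order of RPKM, minus Dox had MYC first (49.8), then MLX (15.1), MAX (10.3), MXD4 (8.18), MNT (5.31), MGA (4.81), MXI1 (2.79), MXD3 (2.60), MXD1 (1.24) and MYCL (0.359). Of these neighbours only MXI1 and MXD3 overlapped between libraries. In plus Dox MLX came first (18.1 RPKM) and MYC second (16.9), and MXI1 (6.21) had moved above MNT (4.83) and MGA (4.01). No neighbours overlapped there, though 2 libraries give little measure of the spread. The lengths count every annotated exon, so the order of near levels depends on which isoforms these cells make.

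The genes whose profile over the 4 libraries lay nearest to that of MYC, by Euclidean distance of centred log2 CPM among 11310 genes with a symbol and at least 5 CPM, were FJX1, DGKD, LPCAT1, PSD4 and GPRC5B, at distances of 0.031 to 0.061. DGKD, a diacylglycerol kinase, had 186 and 194 CPM in minus Dox and 61.8 and 64.7 CPM in plus Dox, and LPCAT1, a phospholipid acyltransferase, went from 64.5 and 66.0 to 21.1 and 22.9 CPM. With 4 libraries in 2 groups this likeness says little more than that their fold changes (log2 −1.57 to −1.59) are near that of MYC.

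Known MYC targets in ribosome biogenesis were mostly lower. Of the 25, all tested, 23 were lower, 0 higher and 2 not past in edgeR, against 28.4% of all tested genes that fell, and their median log2 fold change was −0.43 against 0.00. At an unadjusted p under 0.05 the count of higher members was also 0, as it was in DESeq2, where 21 fell. NOLC1, a nucleolar chaperone of snoRNPs, fell from 295 to 175 CPM, and DKC1, the pseudouridine synthase of box H/ACA snoRNPs, fell from 194 to 120 CPM. PES1, which acts in 60S subunit assembly, fell from 146 to 92.9 CPM, and NOP56, a core protein of box C/D snoRNPs, from 332 to 226 CPM. WDR43 (137 and 130 CPM) and RCL1 (39.8 and 39.1 CPM) did not pass. Scaled by library size only, 17 fell and 2 rose, with a median of −0.21 against 0.22 over all tested genes.

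Among 21 tested MYC targets in metabolism and growth 14 fell, 4 rose and 3 did not pass, with a median of −0.34, against 28.4% of all tested genes in each direction. ENO1, a glycolytic enolase, fell from 3593 to 2009.8 CPM and LDHA, lactate dehydrogenase A, from 2377 to 1647 CPM. CAD, which starts pyrimidine synthesis, fell by 1.05 on the log2 scale (262 to 127 CPM), and CDK4, a cyclin D kinase, from 150 to 87.7 CPM, though 43.2% of the exon bases of CDK4 lie opposite another gene. CDC25A, a phosphatase of the cell cycle, did not pass (29.2 and 31.0 CPM) but did as higher with library size only (0.30), and neither did EIF4A1, whose low count is uncertain since 48.6% of its exon bases are shared with another gene. Under library size alone 9 fell and 5 rose (16.2% and 43.6% of all tested genes), with a median of −0.13.

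Of 9 tested genes that MYC is known to repress, 4 rose, 3 fell and 2 did not pass, with a median of −0.06. With 28.4% of all tested genes called in each direction, the lower share lies near the background. The CDK inhibitor CDKN1B rose from 40.4 to 62.5 CPM and the stress gene NDRG1 from 77.2 to 112 CPM. GADD45A, a growth arrest gene, fell from 21.4 to 8.64 CPM and the chaperone gene CLU from 492 to 287 CPM. DDIT3 (8.68 and 7.93 CPM) and CEBPA (9.01 and 8.66 CPM) did not pass, and 43.4% of the exon bases of CEBPA lie opposite another gene.

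**Figure D4:**
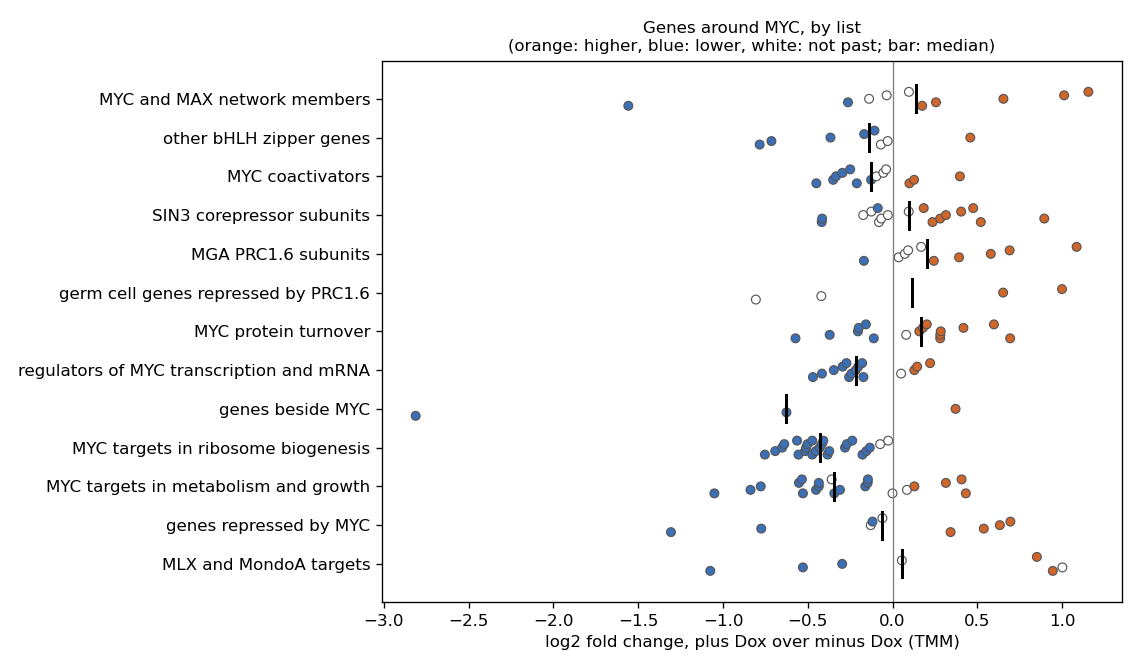
Fitted log2 fold change (TMM) of each tested gene, by list, with orange for higher, blue for lower and white for not past the threshold, and a black bar at each list's median. The ribosome biogenesis targets lie at or below 0, with a median of −0.43, while SIN3 and PRC1.6 subunits lie on both sides.

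Among 13 coactivators of MYC 7 fell, 3 rose and 3 did not pass (median −0.13), against 28.4% of all tested genes in each direction. Scaled by library size only, 7 were higher and 3 lower (43.6% and 16.2% of all tested genes), and without plus Dox replicate 1 or 2 the higher ones were 1. RUVBL1, an ATPase of chromatin remodellers, fell from 117 to 85.9 CPM, the acetyltransferase KAT2A from 164 to 129 CPM and EP400 from 243 to 193 CPM. The elongation cyclin CCNT1 rose from 75.8 to 99.7 CPM. ACTL6A (67.8 and 65.3 CPM) did not pass, though it did as higher with library size only (0.16). Among 17 subunits of the SIN3 corepressor 8 rose, 3 fell and 6 did not pass (median 0.10), against 28.4% in each direction, and 13 rose with library size only, against 43.6% of all tested genes. BRMS1L rose from 16.9 to 31.4 CPM, SUDS3 from 90.7 to 120 CPM and ARID4B from 49.6 to 68.9 CPM, and BRMS1 fell from 88.8 to 66.5 CPM. SIN3A, the scaffold that MXD proteins bind, had 155 and 152 CPM and did not pass, nor did SAP30L (50.6 and 47.9 CPM). With library size only SIN3A passed as higher (0.19).

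Of 16 tested genes that act on MYC ubiquitination or protein turnover, 9 rose, 6 fell and 1 did not pass (median 0.17). In each direction 28.4% of all tested genes were called. The list mixes genes that stabilise and destabilise MYC, so these counts give no direction for turnover. With library size only 2 fell (16.2% of all tested genes), and without plus Dox replicate 2 it was 3. FBXO28, a ubiquitin ligase subunit for MYC, rose from 54.3 to 87.8 CPM, and CIP2A, an inhibitor of the phosphatase that destabilises MYC, rose from 60.8 to 91.8 CPM. The deubiquitinase USP36 fell from 116 to 77.8 CPM and the ligase HUWE1 from 870 to 673 CPM. USP28, a deubiquitinase of MYC, passed as lower (44.4 to 39.8 CPM) but lay at 0.058 on the log2 scale with library size only and lost the call in DESeq2 and without plus Dox replicate 2. USP37 did not pass (16.8 and 17.7 CPM), though it did as higher with library size only (0.30).

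Among 15 regulators of MYC transcription and mRNA 11 fell, 3 rose and 1 did not pass (median −0.22), against 28.4% of all tested genes in each direction. With library size only the shares over all tested genes were 16.2% lower and 43.6% higher. Under library size alone 3 were lower and 4 higher, and without plus Dox replicate 1 or 2 none of the 3 higher calls was left in edgeR (0 higher, and 2 higher at an unadjusted p under 0.05, with 2 higher calls in DESeq2 on all libraries). IGF2BP1, an RNA-binding protein that stabilises MYC mRNA, fell from 234 to 169 CPM, and CNBP, which binds the MYC promoter, from 222 to 167 CPM. STAT3 fell from 496 to 415 CPM, a call lost with library size only (−0.040 on the log2 scale, edgeR adjusted p = 0.331, the highest over its alternatives), and MAZ fell from 78.9 to 62.0 CPM, though 58.3% of the exon bases of MAZ lie opposite another gene. E2F1 passed as higher by 0.13 on the log2 scale (edgeR adjusted p = 0.0298), but lost the call with no filter, in DESeq2 and when either plus Dox library or minus Dox replicate 1 was left out (edgeR adjusted p up to 0.302). CTNNB1, the WNT effector beta-catenin, had 397 and 411 CPM and did not pass, though it did as higher with library size only (0.27).

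Around MYC itself, 3 of 6 matched neighbouring genes were tested. Of these 2 were lower and 1 higher, where 28.4% of all tested genes were called in each direction, and 3 genes are too few to describe the region. The long non-coding RNA PVT1 had 39.1 and 42.7 CPM without and 26.8 and 26.3 CPM with doxycycline and was lower at a log2 fold change of −0.63 (SE 0.07, edgeR adjusted p = 1.09e-09), and CASC8, another non-coding RNA, fell from 6.25 to 0.890 CPM. LRATD2 rose from 12.5 to 16.1 CPM, a call that was lost without minus Dox replicate 2, with 21.5% of its exon bases opposite another gene.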

How the data were processed

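The authors deposited unnormalized read counts per Ensembl gene in 4 files, as the values show. The submitters' processing notes name featureCounts 2.0.3, STAR 2.7.10b, cutadapt 4.0, DESeq2 2.11.40.7 and DRAGEN, in no stated role, and hg38 as the build. Which annotation and strand setting were used is not given in the sources used here, so overlapping genes may share reads. Symbols (56948 of 58051 rows) and exon lengths (57447 rows, GENCODE 29, same build) were matched by Ensembl ID.

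In R 4.3.3 with edgeR 4.0.16, genes passing filterByExpr (18046) were TMM-scaled and compared between groups by the quasi-likelihood test, and p-values were adjusted over all of them (Benjamini-Hochberg). An SE is the fitted log2 fold change over the square root of its F statistic. CPM is relative to TMM-scaled library size, and values joined by "from" and "to" are means of 2 libraries. Alternatives were library size only, RLE factors, no filter, DESeq2 1.42.0, a replicate block and leaving out each library. Replicates of a group differed by more than sampling noise (chi-square per degree of freedom 4.13 and 2.25).

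The members, the 12 other lists (165 genes, 164 matched, 148 tested) and the tests were chosen with earlier results of these data known. Text names all members, FOS, the 4 genes of lowest and 2 of highest adjusted p in each list, and the 5 genes most like MYC; 1 gene that this rule takes is not reported here. Other genes are said to be named after their values were seen, apart from cell type markers. On counts simulated for this comparison over 18046 genes, 50 genes each were given a 1.2-, 1.5-, 2- or 4-fold change. These were drawn only from genes with a mean of at least 1 CPM of unscaled library size. The test recovered 44.0%, 78.0%, 98.0% and 100% of them and called 7 of 17846 unaltered genes. Few genes were changed there, with as many raised as lowered, whereas 56.9% of tested genes passed in the real libraries. These rates may therefore not hold for the real libraries.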

Additional observations from a re-analysis of the deposited data

How the results depend on the processing

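The same-numbered libraries do not deviate together (correlation of their deviations 0.0023 across 18046 genes), and the labels do not say that a number marks a shared culture. With a replicate block 5219 genes were higher and 5195 lower, and MNT passed as lower (−0.14, edgeR adjusted p = 0.0450), the only call among the members that the block changed. Of 349 values of the main results under the alternatives 301 kept their direction and their side of the threshold, or stayed within 1.5 times for a count. For 68 further genes 564 of 612 did, and 22 turned in sign, 18 were weaker and 8 stronger. Scaling mattered most. With library size only 7865 genes were higher and 2925 lower, MXD3 lay at 0.31, MXD4 at 0.18, MNT at 0.077 and MGA at −0.047 on the log2 scale, and 1 member was lower. In the other lists it gave 3 higher and 3 lower bHLH zipper genes, 7 higher and 3 lower coactivators, 13 higher and 1 lower SIN3 subunits and 9 higher and 0 lower PRC1.6 subunits. It also gave 2 lower genes of MYC turnover, 3 lower regulators of MYC, 2 higher ribosome biogenesis targets and 9 lower metabolism targets. Of all tested genes 43.6% were higher and 16.2% lower under this scaling. Genes not past the threshold or barely past it turned upward with it: ACTL6A (0.16), CEBPA (0.16), DDIT3 (0.087), EIF4A1 (0.22), RCL1 (0.19), SAP30L (0.14), SIN3A (0.19), TFEB (0.15), USF2 (0.19), USP28 (0.058) and WDR43 (0.14). Among these ACTL6A, SIN3A and USF2 passed as higher with library size only. EIF4A1 also lay at 0.0027 with the block and 4.2e-04 in DESeq2. DESeq2 gave 0.65 for MYCL, which did not pass, 0 higher bHLH zipper genes, 1 higher germ cell gene and 0 higher targets of MLX and MondoA. With a geometric mean of the antagonists in place of their sum, the ratio of MYC to them was 3.93-fold lower with doxycycline, a figure of 3.35 with CPM and 3.34 with MGA added.

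Leaving out 1 library at a time gave log2 fold changes of 0.52 to 0.77 for MYCL, 0.13 to 0.21 for MAX, −0.088 to 0.0011 for MXD4 and −0.21 to −0.078 for MNT. Named genes that turned in sign in these fits ranged from −0.18 to 0.051 (CEBPA), −0.10 to 0.089 (EIF4A1), −0.013 to 0.067 (L3MBTL2), −0.011 to 0.18 (RING1), −6.48 to 0.20 (SMC1B), −0.098 to 0.19 (TXNIP) and −0.0074 to 0.16 (USP37). Of these only SMC1B passed the threshold in one of the fits, as lower without plus Dox replicate 2 (edgeR adjusted p = 0.0176), where its remaining plus Dox library had 0 counts, so that this fold change depends on the prior count. Counts ranged from 3 to 5 for higher members, 0 to 1 for higher and 3 to 5 for lower bHLH zipper genes, 1 to 3 for higher coactivators, and 1 to 2 for higher and 0 to 1 for lower germ cell genes. They ranged from 3 to 6 for lower genes of MYC turnover, 0 to 3 for higher regulators of MYC, 0 to 1 for higher neighbours of MYC and 1 to 2 for higher targets of MLX and MondoA. Where a group kept 1 library, that library was assumed to vary like the other group.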

Other observations

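Other bHLH zipper genes were lower in 5 of 8 tested members, higher in 1 and not past in 2 by edgeR. Their median log2 fold change was −0.14, and 28.4% of all tested genes were called in each direction. MITF, a lysosomal and pigment cell factor, fell from 70.7 to 41.0 CPM and TFAP4, a known target of MYC, from 24.2 to 14.8 CPM. The partners of MLX moved apart: MLXIP (MondoA) fell from 167 to 130 CPM and MLXIPL (ChREBP) rose from 3.90 to 5.35 CPM. USF2 (212 and 208 CPM) and TFEB (10.0 and 9.57 CPM) did not pass, though USF2 did as higher with library size only (0.19). With library size only 3 of these genes were higher and 3 lower, against 43.6% and 16.2% of all tested genes. The lower calls under TMM were fewer without minus Dox replicate 2 or plus Dox replicate 1. The rise of MLXIPL was not called in DESeq2 or with the second library of either group left out.

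Among 7 tested targets of MLX and MondoA 2 rose, 3 fell and 2 did not pass, with a median of 0.05, against 28.4% of all tested genes in each direction. In DESeq2 0 were called higher (1 at an unadjusted p under 0.05), and in edgeR 1 rose if either plus Dox library or minus Dox replicate 2 was left out. PFKFB3, which drives glycolysis, fell from 644 to 306 CPM, KLF10 from 58.9 to 48.0 CPM (a call lost with library size only, at −0.081 on the log2 scale) and ARRDC3 from 15.2 to 10.5 CPM. ARRDC4 rose from 1.09 to 1.97 CPM. TXNIP, a glucose-responsive gene often used as a readout of MondoA, was near the floor in both groups at 0.364 and 0.379 CPM, and GPD1 (0.303 and 0.602 CPM) did not pass, though it did as higher without minus Dox replicate 1 (2.13 on the log2 scale, edgeR adjusted p = 0.0320).

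Of 10 subunits of the MGA complex PRC1.6, 5 rose, 1 fell and 4 did not pass, with a median of 0.21, where 56.9% of all tested genes passed. RYBP rose from 40.3 to 85.5 CPM and its paralog YAF2 from 22.9 to 37.0 CPM. RNF2, the ubiquitin ligase, rose from 28.2 to 42.1 CPM and TFDP2 from 52.8 to 69.2 CPM, while RING1 (10.9 and 11.6 CPM) and L3MBTL2 (33.0 and 33.8 CPM) did not pass. Scaled by library size only, 9 of the 10 were higher, against 43.6% of all tested genes. Of 12 germ cell genes that PRC1.6 is known to repress only 4 had enough counts to be tested. Of these 2 rose, against 28.4% of all tested genes: STAG3 from 8.48 to 16.9 CPM and CPEB1 from 1.68 to 2.65 CPM. The rise of CPEB1 was not called in DESeq2 (adjusted p = 0.122). Its log2 fold change was 0.65, and 0.40 without minus Dox replicate 1 or without plus Dox replicate 1. SYCE2 (0.610 and 0.454 CPM) and SMC1B (0.312 and 0.179 CPM) did not pass, though SMC1B did without plus Dox replicate 2. For STAG3 18.7% and 13.6% of the exon bases, and for CPEB1 21.8% and 7.92%, are shared with genes on the same and the other strand.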
